A study of Rattus norvegicus with 36 samples.

Results

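Genes for the protein subunits of the mitochondrial ribosome are described here in rat cardiac myoblasts given mimics of miR-125b or of its 3′ end variants, the isomiRs. They were chosen by name alone, as protein-coding genes whose symbol begins with Mrpl (large subunit) or Mrps (small subunit) and a number, and no measured value entered the choice. The rule found 73 genes, 44 Mrpl and 29 Mrps, of 24275 genes in the joined count tables, 18423 of them protein coding. 1 name of this kind that belongs to a pseudogene was left out. The names are older than the structures. Mrps30 and Mrps18a sit in the large subunit, and Mrps36, also named Kgd4, is now known as a component of the 2-oxoglutarate dehydrogenase complex.

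The cells were H9C2, a myoblast line derived from embryonic rat heart. They were transfected with 25 nmol/L of a mimic control (MC), of miR-125b, or of an isomiR with an A added at the 3′ end (Plus A) or with A, AG or AGU deleted from it (Trim A, Trim AG and Trim AGU). Each mimic was studied in normoxia and in hypoxia by poly-A RNA sequencing in 3 libraries per group. Hypoxic cells were kept in serum-free, low-glucose medium and normoxic cells in fresh growth medium, so oxygen and medium cannot be told apart in any comparison of hypoxia with normoxia. All groups were the same transfected cell line, and no untransfected cells were compared here. Counts per library were analysed for 33 of 36 libraries and 11 of 12 groups, and Normoxia MC entered only as the authors' mean of normalized counts. The labels do not say whether replicates were separate cultures, so p-values measure the spread between these libraries, which may be technical. In bulk RNA, fewer cells of a type and less RNA per cell cannot be told apart.

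The libraries held 28361216 to 42672584 counts each, with Hypoxia Trim AG the deepest group (39940087 to 42672584). Every one of the 73 genes was counted in every library, with 2 to 6655 reads and a median of 1005. The cells carried the markers of their label in part. The 9 skeletal myoblast or muscle genes summed to 359 to 1402 CPM (counts scaled to the same library total), and 1 stayed below 0.1 CPM in every library. Myod1 was at 17.1 to 146 CPM, while Myf5 did not pass 0.0703 CPM in any library. Of the other marker lists, 6 adult cardiomyocyte genes summed to 10.6 to 20.05 CPM, 2 immune genes to 0.493 to 2.54 CPM, and 4 fibroblast genes to 5514 to 27909 CPM, nearly all of it Col1a1 (5403 to 27702 CPM). The endothelial markers Pecam1, Cdh5 and Kdr were searched by symbol, and none was present in the counts read here. Hypoxia-inducible factor targets, a check of the oxygen label, were higher in hypoxia for 6 to 8 of 8 tested genes under each mimic.

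The 5 mimics share 1 seed and differ only at the 3′ end. The miR-125b sequence below was taken from RefSeq (GRCr8, chr11:29732588-29732609, plus strand). The isomiRs were built from it with the bases that the paper describes as added or deleted. The sequences are shown because every comparison of an isomiR with miR-125b turns on them. Capitals mark the seed, bases 2 to 8.
miR-125b: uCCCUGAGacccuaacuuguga
Plus A: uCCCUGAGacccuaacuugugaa
Trim A: uCCCUGAGacccuaacuugug
Trim AG: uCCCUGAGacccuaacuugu
Trim AGU: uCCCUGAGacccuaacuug

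The mitochondrial ribosome translates the messages of mitochondrial DNA, which encode core subunits of the respiratory chain and of ATP synthase. Its RNAs are made inside the organelle, whereas all of its proteins are encoded in the nucleus, made on cytosolic ribosomes and imported. Heart muscle depends on this system, and inherited defects in several of the subunits (among them MRPL3, MRPL44 and MRPS22) cause cardiomyopathy or combined respiratory chain deficiency. Nuclear factors known to act on the promoters of such genes include nuclear respiratory factor 1 (NRF1), the ETS factor GABP and YY1.

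Promoters of 59 of the 73 genes (250 bases before to 50 after the start, RefSeq, GRCr8) were matched, 58 by symbol and Mrps36 as Kgd4. They were searched on both strands for 5 motifs, each promoter counted once per motif and overlaps between motifs allowed. The NRF1 motif CGCANGCGC was present in 11 member promoters (18.6%), against 6.34% of all 27457 promoters in the table. The ETS motif CCGGAAG was in 19 (32.2%, against 9.22%) and the YY1 motif AANATGGCG in 12 (20.3%, against 3.33%). The E-box CACGTG was in 6 (10.2%, against 6.65%) and CCAAT in 25 (42.4%, against 37.7%). A match describes these letters only. Below are 3 promoters, 2 with NRF1 letters and 1 with a YY1 match just after the start. Capitals mark matches of NRF1, ETS and YY1 only, and the 1 CCAAT match of Mrpl44 is left in lower case. Mrpl44 (chr9:88554800-88555099, plus strand) holds a palindromic NRF1 match read on both strands about 131 bases before the start. Mrpl45 (chr10:82804789-82805088, plus strand) holds 2, at 228 and 144 bases before it. Mrpl46 (chr1:142116981-142117280, minus strand) holds AAGATGGCG 24 bases after the start, and its window shares 267 bases with that of Mrps11, which is read in the opposite direction.
Mrpl44: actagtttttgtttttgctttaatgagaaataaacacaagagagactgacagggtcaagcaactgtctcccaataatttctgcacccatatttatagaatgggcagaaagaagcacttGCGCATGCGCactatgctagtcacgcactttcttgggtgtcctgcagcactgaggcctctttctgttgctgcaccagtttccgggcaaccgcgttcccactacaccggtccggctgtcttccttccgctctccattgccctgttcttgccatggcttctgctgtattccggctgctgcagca
Mrpl45: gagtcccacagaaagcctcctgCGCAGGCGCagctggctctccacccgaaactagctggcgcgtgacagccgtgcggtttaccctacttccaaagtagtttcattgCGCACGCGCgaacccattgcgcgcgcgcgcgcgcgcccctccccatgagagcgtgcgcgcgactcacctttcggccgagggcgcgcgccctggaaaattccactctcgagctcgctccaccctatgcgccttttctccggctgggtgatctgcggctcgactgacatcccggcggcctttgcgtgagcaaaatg
Mrpl46: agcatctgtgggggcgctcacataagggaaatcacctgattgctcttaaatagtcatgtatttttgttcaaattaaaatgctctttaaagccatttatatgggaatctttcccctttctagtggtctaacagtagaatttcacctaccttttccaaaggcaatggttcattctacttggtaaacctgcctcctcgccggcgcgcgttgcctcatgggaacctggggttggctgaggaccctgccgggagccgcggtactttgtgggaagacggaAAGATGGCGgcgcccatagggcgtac

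Before the comparisons, the libraries themselves were compared. In 6 libraries, replicates 2 and 3 of Hypoxia Trim A, Hypoxia Trim AG and Hypoxia Trim AGU, counts depended on gene length differently from the other 27. The Pearson correlation was taken across genes between log2 gene length and a library's deviation from the mean of all libraries. It was −0.375 to −0.166 in these 6 and −0.108 to 0.285 in the others. The 6 were set by a limit on the low side alone (below −0.15). The highest value, 0.285, was that of Normoxia Trim AGU replicate 2, which stayed in the fits that leave the 6 out. The mitochondrial ribosomal genes are short, with a median length of 1110 bases (236 to 4125) against 2322.5 for all genes that averaged 1 CPM or more. Their summed level was 3072 to 4006 CPM in the 6 libraries and 2164 to 2728 CPM in the other 27, with no overlap. Cytosolic ribosomal protein genes (44950 to 79250 against 24376 to 43083 CPM) and mitochondrially encoded mRNAs (38399 to 49411 against 27194 to 35721 CPM) were also higher in the 6. The part of this shift in the Trim results was not tested, and the counts of called genes in each Trim comparison are given with and without them. Left out, they leave 1 library in the Hypoxia Trim group, assumed to vary like the libraries of the other group. Values without them thus have no replicate spread of their own in that group, and counts of calls without them rest on the spread of the other group. Shares of all genes printed beside counts belong to fits with all libraries. Such shares are not given here for fits that leave libraries out, so counts from those fits have no background beside them.

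**Figure D1:**
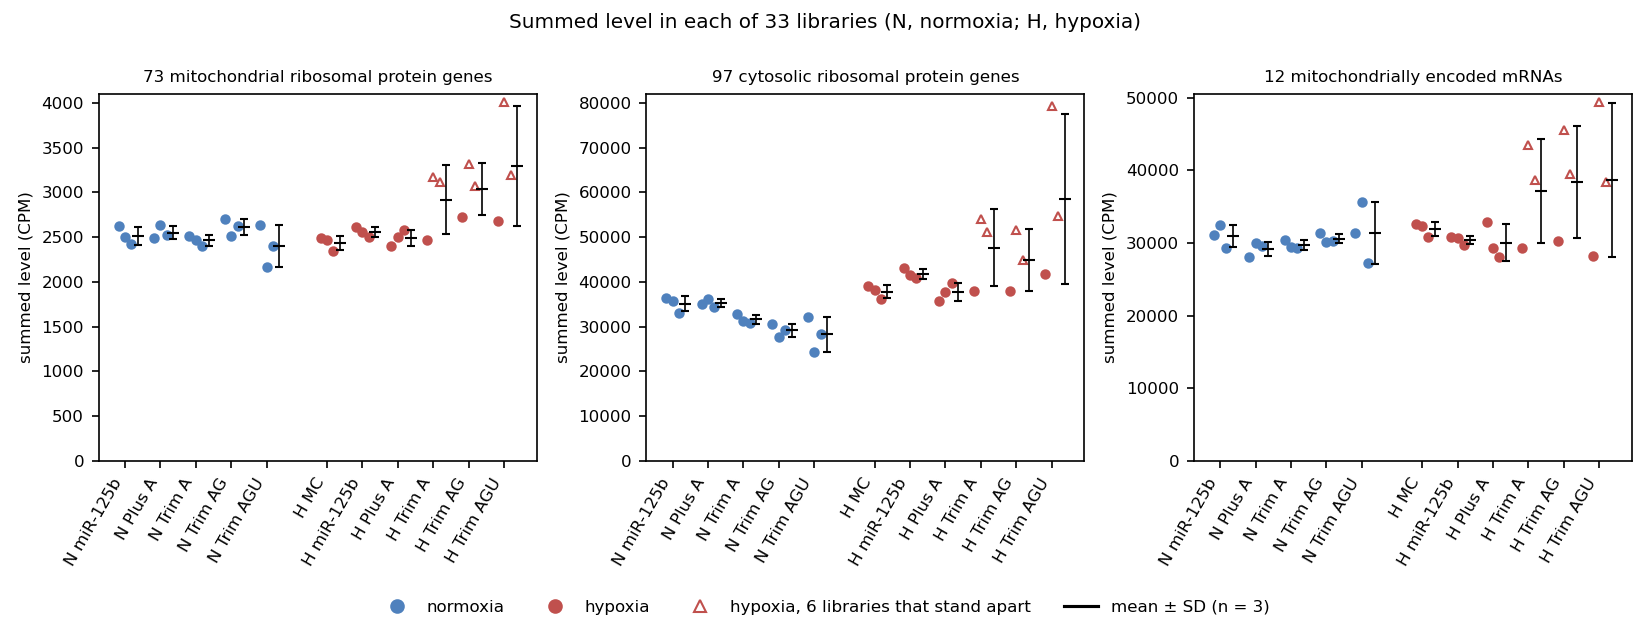
Summed level in CPM of the 73 genes, of the cytosolic ribosomal protein genes and of the mitochondrially encoded mRNAs in each of 33 libraries, with points for libraries and bars for the mean and SD of 3 libraries. The 6 libraries that stand apart, drawn as open triangles, lie at 3072 to 4006 CPM for the mitochondrial ribosomal genes, above the other 27 (2164 to 2728 CPM).

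The genes were well expressed in these cells. Averaged over the 11 groups, their level in FPKM (fragments scaled by gene length and library total, the authors' values) ran from 1.51 to 329 with a median of 27.8. That placed 61 of 73 above 13.1 FPKM, the median of the 11163 protein-coding genes at 1 FPKM or more. The highest was Mrpl33, a small protein of the large subunit, at 329 FPKM (280 to 704 across libraries). Mrpl17, next to the exit tunnel, followed at 161 FPKM (122 to 261) and Mrpl54 at 97.4 FPKM (49.7 to 166). The ranges of Mrpl17 and Mrpl54 overlapped, and that of Mrpl33 lay above both. The lowest were Mrpl1, a protein of the L1 stalk, at 3.48 FPKM (0.674 to 7.39), Mrpl30 at 3.43 (0.130 to 10.4) and Mrpl36 at 1.51 (0.209 to 4.65), whose ranges overlapped too. Within a gene, the ratio of the highest to the lowest group mean in CPM had a median of 1.68 and was under 2 for 61 genes. Hypoxia Trim AGU was the highest group for 40 genes and Hypoxia Trim AG for 14. With the 6 libraries that stand apart left out these were 10 and 21, and Normoxia Trim AG (14 genes) and Hypoxia MC (13) followed.

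Hypoxia was first compared with normoxia under miR-125b, a pair of groups free of the 6 libraries that stand apart. These groups still differed in length correlation, at −0.108, −0.049 and −0.036 in Hypoxia miR-125b and 0.046, 0.075 and 0.159 in Normoxia miR-125b. The test was edgeR's quasi-likelihood test, fitted to all genes, and calls were made below an adjusted p of 0.05 (Benjamini-Hochberg). In hypoxia 14 of the 73 genes were higher and 17 lower, against 24.7% higher and 26.1% lower among all genes tested, and the median log2 fold change was 0.02, against 0.01 for all genes. The genes moved in both directions. Of the 29 Mrps names 6 were higher and 10 lower, and of the 44 Mrpl names 8 and 7. Under Plus A, 9 were higher and 24 lower (all genes 23.9% and 25.3%), with a median of −0.08. With the length trend removed from each library, 12 were higher and 22 lower under miR-125b. Under Plus A these counts were 9 and 25. Scaled by library size alone, which shifted the median of all genes to 0.10 under miR-125b and 0.12 under Plus A, the counts were 23 higher and 12 lower and 15 higher and 16 lower.

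Mrps36, Mrps25, Mrps6, Mrps12 and Mrpl12 were among the genes that fell in hypoxia. Mrps36 was at 15.98, 14.5 and 13.6 CPM in Hypoxia miR-125b and at 25.3, 23.9 and 21.6 CPM in Normoxia miR-125b. All 3 hypoxic libraries lay below all 3 normoxic ones, a log2 fold change of −0.77 ± 0.09 (SE; adjusted p = 0.00011). Under Plus A Mrps36 was at 10.4, 14.1 and 12.5 against 22.5, 25.3 and 22.5 CPM (−1.04 ± 0.12, adjusted p = 8e-05). It also fell under Trim A (−0.58 ± 0.13, adjusted p = 0.0065) and Trim AG (−0.88 ± 0.11, adjusted p = 0.00015), while under Trim AGU the difference was −0.59 ± 0.19 (adjusted p = 0.052). With the libraries that stand apart left out, the Trim values were −0.85, −1.04 and −0.82.

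Mrps12, a protein of the decoding centre, was at 23.8, 27.7 and 25.8 CPM in Hypoxia miR-125b and at 36.3, 35.3 and 32.9 CPM in Normoxia miR-125b, again without overlap (−0.52 ± 0.07, adjusted p = 0.00031). Mrps25 was at 23.5, 21.3 and 19.6 CPM in hypoxia and 30.8, 31.9 and 30.9 CPM in normoxia (−0.62 ± 0.07, adjusted p = 0.00011). The normoxic libraries of Mrps25 were close together and all above the hypoxic ones. Mrps6, at 38.3, 39.4 and 37.6 against 65.9, 50.1 and 51.4 CPM, fell by 0.62 ± 0.10 on the log2 scale (adjusted p = 0.00078). Mrpl12, the L7/L12 stalk protein that also binds the mitochondrial RNA polymerase, was at 67.4, 66.4 and 59.7 CPM in hypoxia and 98.03, 85.7 and 82.6 CPM in normoxia (−0.54 ± 0.08, adjusted p = 0.00032). Under Plus A the falls of these 4 were −0.62 ± 0.09 for Mrps12, −0.80 ± 0.08 for Mrps25, −0.74 ± 0.12 for Mrps6 and −0.69 ± 0.06 for Mrpl12 (adjusted p at most 0.0006). Mrpl17, high in level, fell under both as well (−0.45 ± 0.07 and −0.37 ± 0.09).

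Other genes of the same ribosome rose. Mrpl55 was at 25.1, 24.6 and 23.2 CPM in Hypoxia miR-125b and 18.3, 17.4 and 15.0 CPM in Normoxia miR-125b, and Mrps33 at 43.04, 40.7 and 36.7 against 26.3, 28.1 and 27.6 CPM. Hypoxic libraries were above normoxic ones throughout, by 0.44 ± 0.09 on the log2 scale for Mrpl55 (adjusted p = 0.0024) and 0.47 ± 0.07 for Mrps33 (adjusted p = 0.00042). Mrpl45, which helps to hold the ribosome at the inner membrane, rose by 0.36 ± 0.05 (adjusted p = 0.00035) and Mrps16 by 0.34 ± 0.07 (adjusted p = 0.0029). Mrps22 rose by 0.26 ± 0.07 (adjusted p = 0.018), a call lost without Hypoxia miR-125b replicate 1 (adjusted p = 0.077). In Plus A these 5 genes were also called higher, with log2 fold changes of 0.45, 0.36, 0.23, 0.28 and 0.27 in the same order. There Mrps22 lost its call without Hypoxia Plus A replicate 1 (adjusted p = 0.058) and Mrps16 without Normoxia Plus A replicate 2 (adjusted p = 0.12). In all, 6 genes (8.22%) were higher and 16 (21.9%) lower under both miR-125b and Plus A, against 17.4% and 20.6% of the 14784 genes tested in both.

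**Figure D2:**
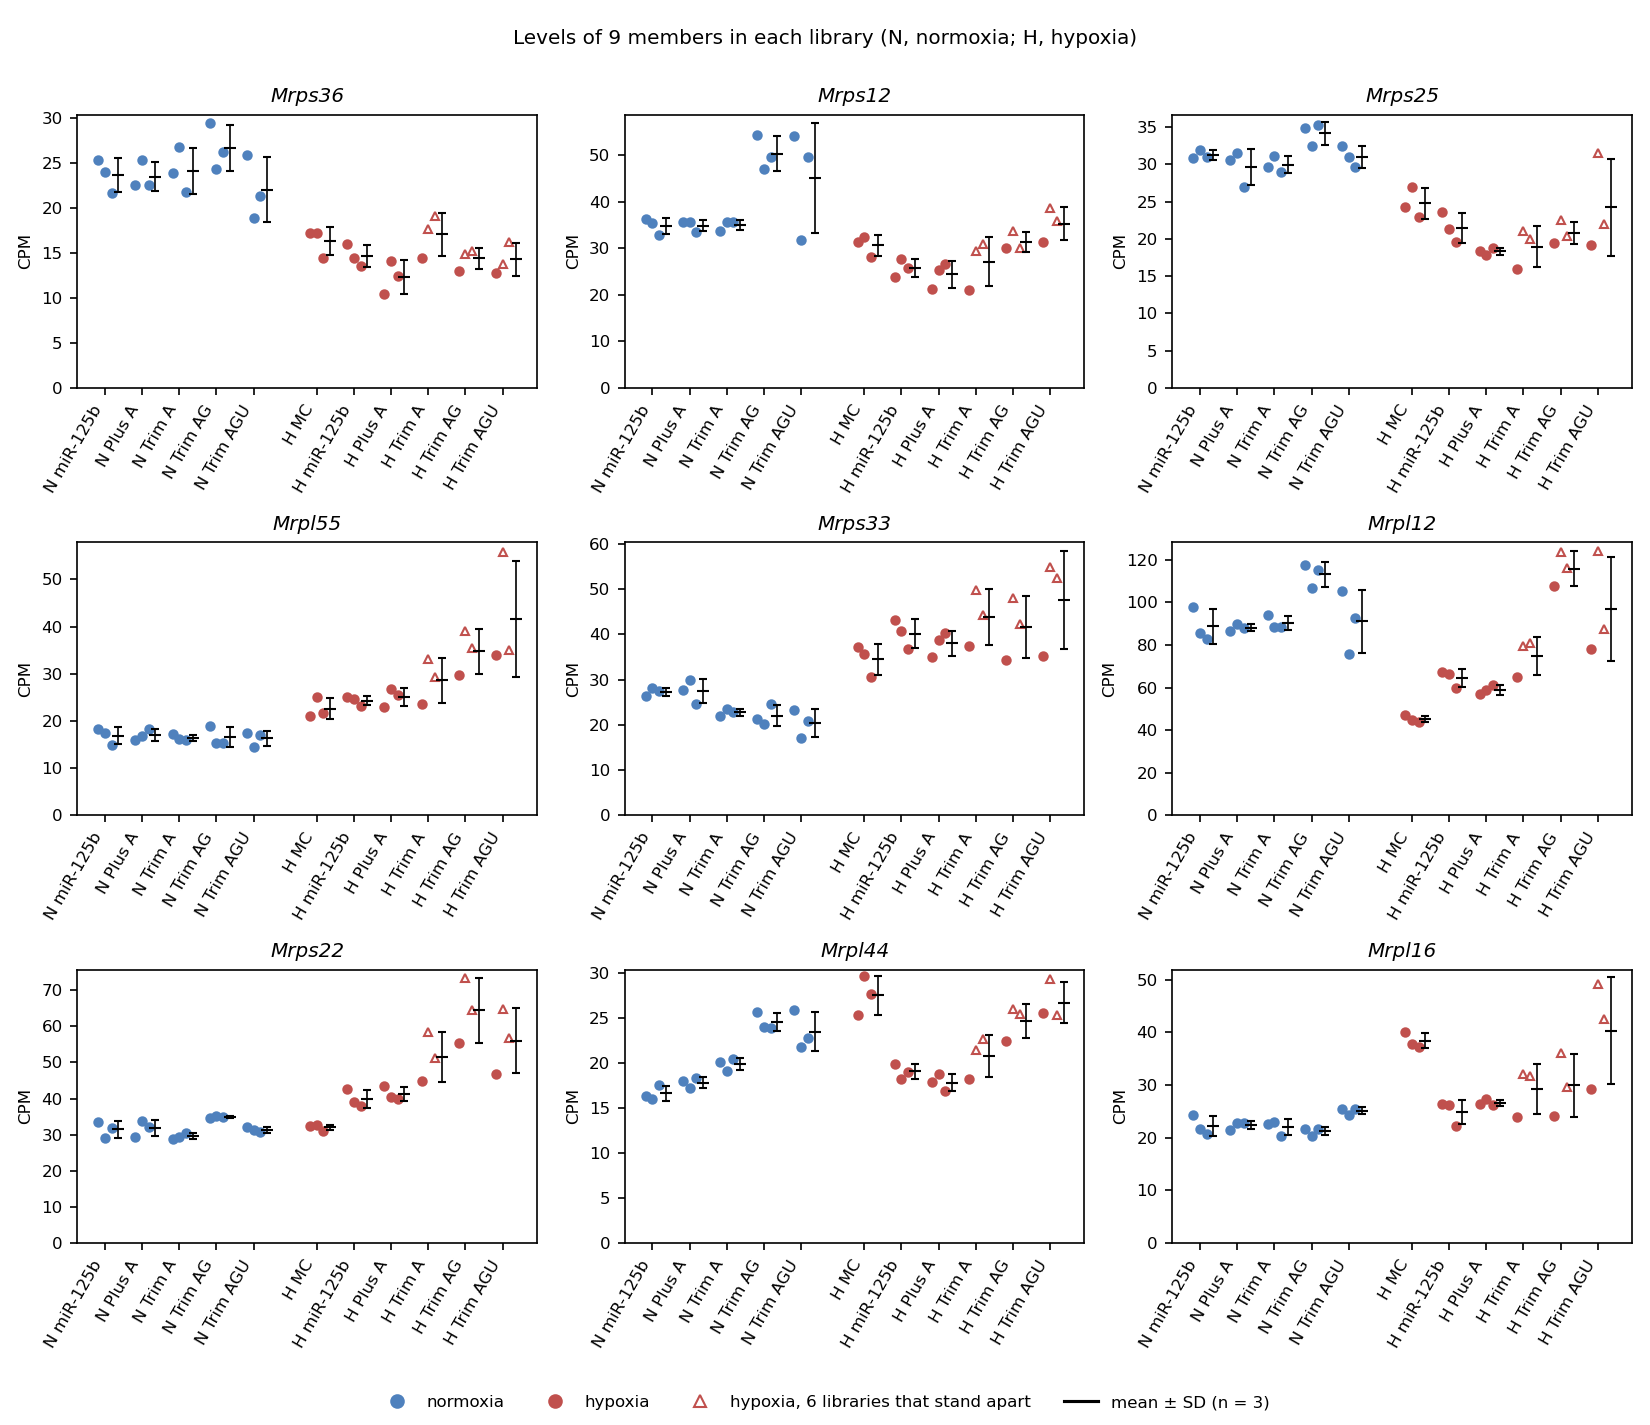
Level in CPM of 9 genes (Mrps36, Mrps12, Mrps25, Mrpl55, Mrps33, Mrpl12, Mrps22, Mrpl44 and Mrpl16) in each library of 11 groups, with points for libraries, open triangles for the 6 libraries that stand apart and bars for the mean and SD of 3 libraries. Mrps36 is lower in hypoxia under every mimic (10.4 to 19.1 against 18.9 to 29.4 CPM, groups of 1 mimic not overlapping), whereas Mrpl55 and Mrps33 are higher.

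The other parts of the mitochondrial translation system were read in the same fits, in which 24.7% of all genes were higher and 26.1% lower under miR-125b. Under miR-125b, 11 of 25 tested genes for assembly and rRNA modification of the mitochondrial ribosome were higher in hypoxia and none was called lower, with a median log2 fold change of 0.16. Of 16 mitochondrial translation factors 2 were higher and 3 lower, of 20 mitochondrial aminoacyl-tRNA synthetases 3 and 3, and of 10 genes for mitochondrial transcription and DNA maintenance 4 and 1. Tfam, which packages and transcribes mitochondrial DNA, rose by 0.39 ± 0.06 and Polrmt, the mitochondrial RNA polymerase, by 0.38 ± 0.08. Of 12 mitochondrially encoded mRNAs, 7 fell and none was called higher (median −0.29). Of 6 mitochondrial ribosomal proteins with other names, Chchd1 rose by 0.22 ± 0.06 and Ptcd3 fell by 0.23 ± 0.05. Of 8 regulators of mitochondrial biogenesis 3 were higher and 2 lower, and of 86 cytosolic ribosomal protein genes 41 were higher and 7 lower. The part in these lists of the length dependence that differed between the groups was not tested.

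Under the trimmed isomiRs more genes were called higher in hypoxia. Under Trim A, 23 were higher and 5 lower (all genes 23.4% and 24.2%), with a median log2 fold change of 0.24. Without the 2 libraries of Hypoxia Trim A that stand apart this turned to 5 higher and 14 lower with a median of −0.06. Leaving out Hypoxia Trim A replicate 1 gave 45 higher, and leaving out any other single library 9 to 15. Under Trim AG, 32 were higher and 6 lower (27.3% and 27.3%), with a median of 0.24, and without the libraries that stand apart 20 and 10, with a median of 0.10. Leaving out Hypoxia Trim AG replicate 2 gave 10 lower. Under Trim AGU, 21 were higher and 0 lower (15.4% and 14.8%), with a median of 0.49, against 7 and 3 with a median of 0.14 without them. There, leaving out Hypoxia Trim AGU replicate 1 gave 34 higher, and 2 to 6 were higher without any 1 of Normoxia Trim AGU replicates 1, 2 and 3 or Hypoxia Trim AGU replicate 3. The 0 of edgeR stood beside 1 lower by DESeq2, and without Hypoxia Trim AGU replicate 2 it became 2.

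Across the 5 mimics, 5 genes (6.85%) were higher in hypoxia in each comparison and none was lower in each, against 1166 (8.12%) and 1579 of the 14353 genes tested in all 5. A further 13 genes (17.8%) were called in no comparison and 4 (5.48%) in both directions, against 19.6% and 2.9% of those 14353 genes. With the libraries that stand apart left out, 4 were higher and 3 lower in each, 23 were called in none and 2 in both directions, of 72 tested in all 5. The 5 were Mrpl55, Mrps33, Mrps22, Mrpl45 and Mrps9. For Mrpl55 the values under Trim A, Trim AG and Trim AGU were 0.72 ± 0.13, 1.08 ± 0.13 and 1.41 ± 0.26, and 0.42, 0.84 and 1.01 without the libraries that stand apart. For Mrps33 they were 0.86 ± 0.11, 0.93 ± 0.14 and 1.27 ± 0.24, and 0.61, 0.63 and 0.75 without them. Mrps22 was at 55.3, 73.4 and 64.6 CPM in Hypoxia Trim AG and 34.7, 35.2 and 34.8 CPM in Normoxia Trim AG. The normoxic libraries were nearly level and all hypoxic ones stood above them (0.89 ± 0.11, adjusted p = 0.00017). Between Hypoxia Trim AG replicate 1 alone and normoxia the difference was 0.66. Mrps12, in contrast, was lower under Trim A (−0.44 ± 0.14, a call lost without Normoxia Trim A replicate 2, adjusted p = 0.08) and Trim AG (−0.68 ± 0.09), and at −0.31 ± 0.23 under Trim AGU (adjusted p = 0.33).

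**Figure D3:**
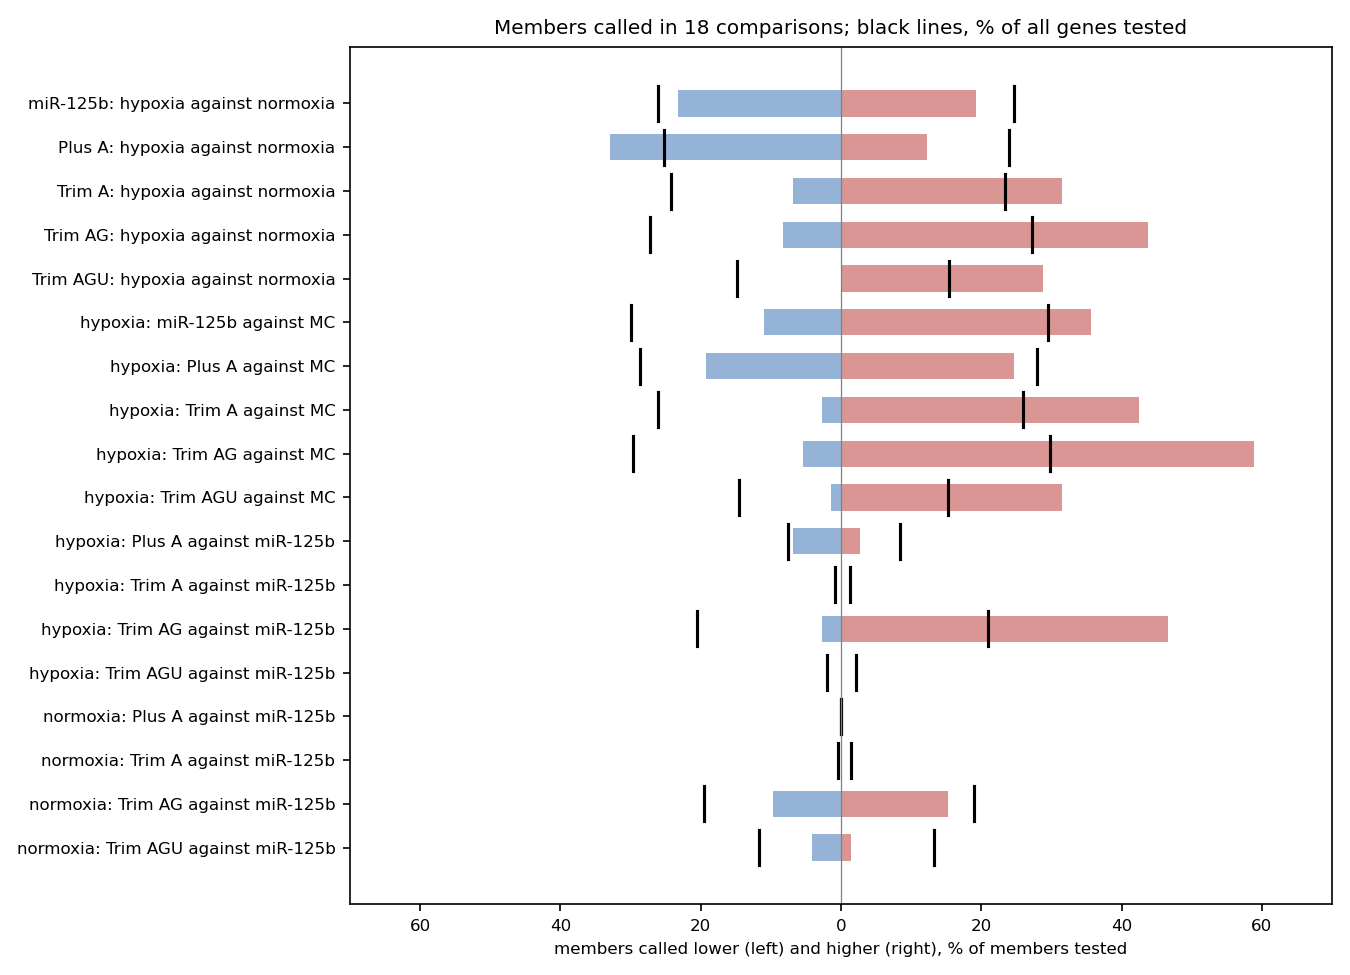
Share of the genes called higher (right, red) and lower (left, blue) in 18 comparisons, in percent of members tested, with black lines for the share of all genes tested. Shares called higher are past the line of all genes in the Trim comparisons with normoxia and MC and in hypoxic Trim AG against miR-125b. The share for miR-125b against MC in hypoxia is past it too (35.6% against 29.5%). Shares for miR-125b and Plus A between hypoxia and normoxia are short of it. Bars of Hypoxia Trim groups include the 6 libraries that stand apart.

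The effect of each mimic in hypoxia was then read against MC. With miR-125b, 26 genes were higher and 8 lower (all genes 29.5% and 30.0%), with a median log2 fold change of 0.09. Leaving out each library in turn gave 20 to 26 higher and 6 to 10 lower. Of the 44 Mrpl names 18 were higher and 5 lower, and of the 29 Mrps names 8 and 3. With the length trend removed from each library, 22 of the 73 genes were higher and 12 lower. With Plus A, 18 were higher and 14 lower (28.0% and 28.6%), with a median of 0.03, and 9 were lower without Hypoxia MC replicate 2. The 5 comparisons share the 3 MC libraries. In them, muscle differentiation genes were high, with Myog at 352 CPM on average against 63.9 CPM in Hypoxia miR-125b and Tnnt2 at 307 against 42.0 CPM. These moved with the mimic, as did hypoxia-inducible factor targets (6 of 8 lower with miR-125b), and their part in the results was not tested.

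Mrpl12 had the largest log2 fold change of the genes called higher with miR-125b. It was at 46.9, 44.8 and 44.0 CPM in Hypoxia MC, 67.4, 66.4 and 59.7 in Hypoxia miR-125b, 56.8, 58.9 and 61.4 in Hypoxia Plus A and 64.8, 79.4 and 80.9 in Hypoxia Trim A. In Hypoxia Trim AG it was at 108, 124 and 116 CPM and in Hypoxia Trim AGU at 78.3, 124 and 87.7. Every mimic library was above every MC library, and Hypoxia Trim AG stood above miR-125b, Plus A and Trim A as well. The log2 fold changes against MC were 0.55 ± 0.05 (adjusted p = 6.3e-06), 0.41 ± 0.05, 0.78 ± 0.10, 1.42 ± 0.08 and 1.26 ± 0.22 (adjusted p = 0.0085), in that order. Without the libraries that stand apart Trim A, Trim AG and Trim AGU gave 0.55, 1.30 and 0.86. In normoxia the authors' mean of normalized counts for Mrpl12 was 2621 with Plus A and 1965 with MC, values without a replicate check here.

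Mrps24 (58.2, 54.6 and 51.9 against 41.6, 42.6 and 37.0 CPM in MC) rose by 0.48 ± 0.06 on the log2 scale with miR-125b (adjusted p = 7e-05). Mrpl45 rose by 0.39 ± 0.04 (70.7, 71.8 and 72.2 against 55.9, 58.4 and 54.3 CPM, adjusted p = 1.2e-05). In neither gene did a mimic library overlap an MC library, which was a condition of the rule that picked them. Mrps27, an RNA-binding pentatricopeptide repeat protein, rose by 0.36 ± 0.06, Mrps22 by 0.35 ± 0.06, Mrps30 by 0.34 ± 0.06 and Mrps18a by 0.27 ± 0.06 (adjusted p at most 0.002).

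Mrpl16, Mrpl44 and Mrps6 were lower with miR-125b. Mrpl16, a core protein of the large subunit, was at 26.3, 26.2 and 22.2 CPM against 40.03, 37.8 and 37.3 CPM in MC (−0.59 ± 0.07, adjusted p = 2.5e-05). Mrpl44, whose promoter is printed above, was at 19.9, 18.3 and 19.0 CPM against 25.3, 29.6 and 27.6 CPM (−0.49 ± 0.07, adjusted p = 0.00011). Neither gene's groups overlapped, again a condition of the rule that picked them. With Plus A both fell too, Mrpl16 by 0.50 ± 0.06 and Mrpl44 by 0.60 ± 0.08 on the log2 scale. With Trim AGU Mrpl44 was at 25.5, 29.3 and 25.3 CPM, overlapping those of MC (0.11 ± 0.15, adjusted p = 0.61), and with Trim AG the difference was −0.10 ± 0.10 (adjusted p = 0.41). Mrps6 fell by 0.40 ± 0.05 with miR-125b (adjusted p = 3.1e-05) and Mrps18b by 0.20 ± 0.05 (adjusted p = 0.0085). Mrps12 fell by 0.21 ± 0.07 (adjusted p = 0.026), a call lost without Hypoxia MC replicate 2 (adjusted p = 0.099).

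Related lists were read beside all genes, of which 29.5% were higher with miR-125b than with MC and 30.0% lower. Of 8 regulators of mitochondrial biogenesis 6 were higher, among them Pprc1 (0.55 ± 0.03), Esrra (0.53 ± 0.03), Nrf1 (0.30 ± 0.06) and Gabpa (0.18 ± 0.04). Nrf1 and Gabpa encode factors whose motifs, like that of YY1, were searched above, and a link to the members was not tested. Of 26 assembly genes 11 were higher and 6 lower, of 16 translation factors 6 and 2, and of 21 synthetases 8 and 7. Tufm, the mitochondrial elongation factor Tu, rose by 0.35 ± 0.04. Of the 10 genes for transcription and DNA maintenance 1 was called, lower, and of the 12 mitochondrial mRNAs 1 and 1. Of 86 cytosolic ribosomal protein genes 50 were higher and 5 lower. With Plus A the cytosolic set stood at 12 higher and 14 lower of 85 (all genes 28.0% and 28.6%).

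With the trimmed isomiRs, 31 genes were higher than MC and 2 lower for Trim A (all genes 26.0% and 26.1%), 43 and 4 for Trim AG (29.8% and 29.6%) and 23 and 1 for Trim AGU (15.3% and 14.6%). The median log2 fold changes were 0.29, 0.37 and 0.57. Without the libraries that stand apart the counts were 15 and 10, 35 and 11, and 28 and 3, with medians of 0.04, 0.20 and 0.16. For Trim A, 53 were higher without Hypoxia Trim A replicate 1, 15 without Hypoxia MC replicate 3, and 18 and 17 without Hypoxia Trim A replicates 2 and 3. The 2 lower became 4 without Hypoxia Trim A replicate 2 and 0 or 1 without any 1 MC library. For Trim AG the 4 lower became 10 without Hypoxia Trim AG replicate 2 and 1 or 2 without Hypoxia Trim AG replicate 1 or 3 or Hypoxia MC replicate 1 or 2. For Trim AGU, 48 and 37 were higher without Hypoxia Trim AGU replicates 1 and 2, 7 without its replicate 3, and 1 to 3 without any 1 MC library. Its 1 lower gene was called in none of these but the fit without Hypoxia Trim AGU replicate 2.

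**Figure D4:**
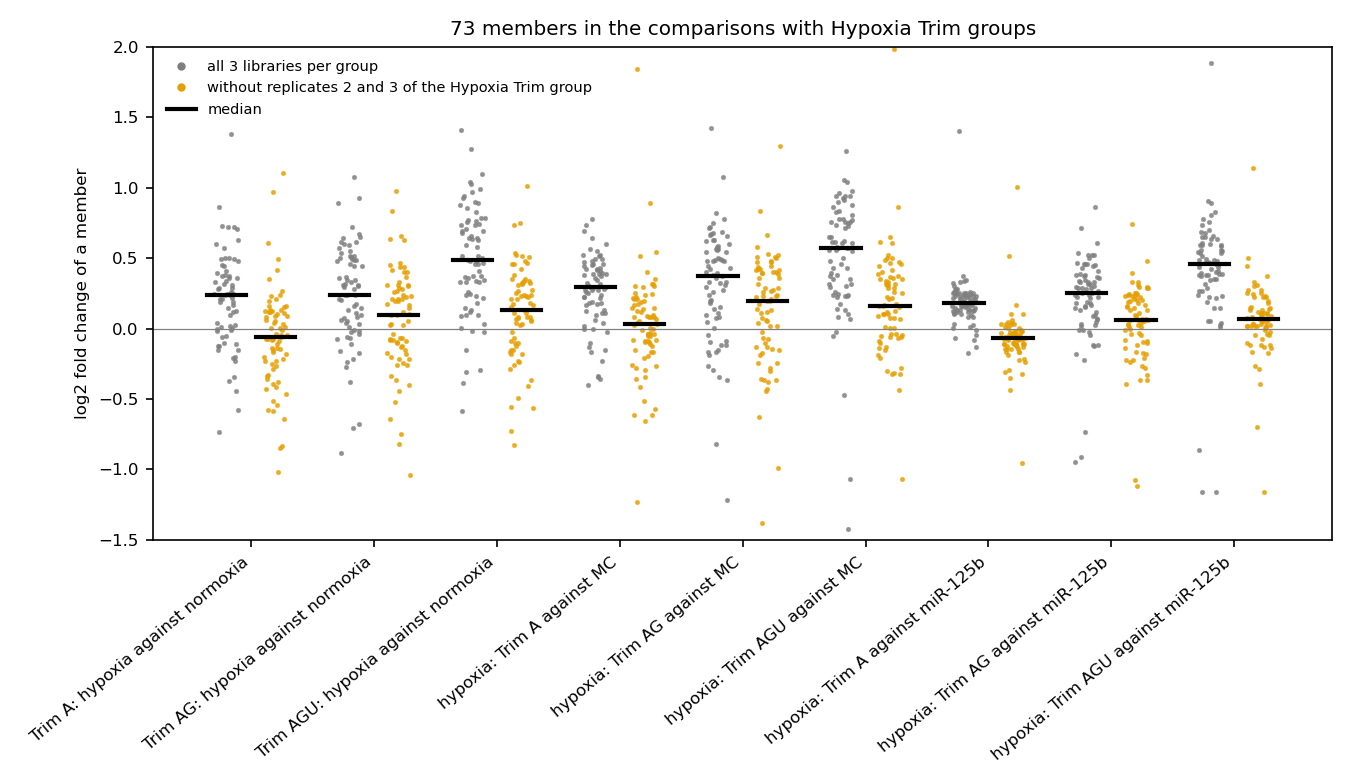
Log2 fold change of the members tested in 9 comparisons of Hypoxia Trim A, Trim AG and Trim AGU, with all libraries and without replicates 2 and 3 of the Hypoxia Trim group. Points are genes and lines their medians, the axis runs from −1.5 to 2.0, and 15 points lie outside it. The median falls in each comparison when those libraries are left out, for example from 0.24 to −0.06 for Trim A between hypoxia and normoxia.

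The isomiRs were also compared directly with miR-125b in hypoxia, mimics that differ only at the 3′ end. The groups differ in more than the mimic. Hypoxia Trim groups hold the libraries that stand apart, and Hypoxia Trim AG was the deepest group. The part of either was not tested. With Plus A, 1 base longer, 2 genes were higher and 5 lower (all genes 8.36% and 7.55%), and the median log2 fold change was −0.07. Without single libraries these became 0 to 1 higher (each of the 6) and 0 to 2 lower (Hypoxia Plus A replicate 2 and Hypoxia miR-125b replicates 1 to 3). With Trim A, 1 base shorter, edgeR called 0 higher and 0 lower (1.27% and 0.920%), although 7 passed an unadjusted p below 0.05 and DESeq2 called 2 higher. The median was 0.18 and the quartiles of the genes lay at 0.12 and 0.25. Without Hypoxia Trim A replicate 1, whose counts did not stand apart, 56 were higher. That fit keeps only replicates 2 and 3 of Hypoxia Trim A, and its share of all genes is not given here. Without replicates 2 and 3, which leaves 1 library in the group, the median was −0.07.

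With Trim AG, 2 bases shorter, 34 genes were higher than with miR-125b and 2 lower (all genes 20.9% and 20.5%), with a median log2 fold change of 0.25. Without Hypoxia Trim AG replicates 2 and 3 they were 17 and 7, with a median of 0.06. Leaving out Hypoxia miR-125b replicate 1, 2 or 3 gave 20, 16 and 14 higher, and leaving out Hypoxia Trim AG replicate 3 gave 15. The 2 lower became 6 without Hypoxia Trim AG replicate 2, 0 without its replicate 3 and 1 without any 1 library of Hypoxia miR-125b. Mrpl12 was higher by 0.86 ± 0.09 (adjusted p = 0.00019) and, without the libraries that stand apart, by 0.74. Mrps22 was higher by 0.71 ± 0.12 (55.3, 73.4 and 64.6 against 42.6, 39.0 and 37.9 CPM, adjusted p = 0.0019) and by 0.48 without them. For Mrps18c the groups were 21.0, 27.9 and 26.3 against 17.8, 15.7 and 16.6 CPM (0.60 ± 0.12, adjusted p = 0.0053, and 0.33 without them). Mrpl12, Mrps22 and Mrps18c were picked here among genes whose groups did not overlap. Mrpl41, known to interact with Bcl-2, was higher by 0.50 ± 0.10 (0.29 without them) and Mrpl3 by 0.27 ± 0.07 (0.19 without them). In the same comparison 5 of 8 muscle markers were lower and 1 higher (median −0.56), and 2 of 4 fibroblast markers were lower (median −1.14), and their part in the result was not tested.

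With Trim AGU, 3 bases shorter, edgeR again called 0 higher and 0 lower (all genes 2.09% and 2.06%), while 27 passed an unadjusted p below 0.05 and DESeq2 called 9 higher. The median was 0.46, the largest of these 4, in a group whose member sums were 2676 to 4006 CPM across its 3 libraries. Without Hypoxia Trim AGU replicates 2 and 3 edgeR called 11 higher and 2 lower with a median of 0.07. Without its replicate 1 it called 21 higher, and without its replicate 2 it called 13 higher and 2 lower. Mrpl44, at 25.5, 29.3 and 25.3 CPM against 19.9, 18.3 and 19.0 CPM with miR-125b, did not overlap between the groups and differed by 0.59 ± 0.15 (adjusted p = 0.077), and by 0.44 without the libraries that stand apart.

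The same comparisons were made in normoxia, which holds none of the 6 libraries that stand apart. Normoxia Trim AGU replicate 2 had the highest length correlation of all libraries (0.285) and the lowest summed level (2164 CPM). With Plus A edgeR called 0 higher and 0 lower, as it did among all genes (0% and 0%). Of the 73 genes 1 passed an unadjusted p below 0.05 and DESeq2 called 0, and the quartiles of the log2 fold changes were −0.02 and 0.06. With Trim A edgeR called 0 and 0 (1.43% and 0.489%), 5 passed the unadjusted p and DESeq2 called 0, with quartiles of −0.09 and 0.02. With Trim AG, 11 of 72 tested genes were higher and 7 lower (19.0% and 19.6%). Leaving out Normoxia miR-125b replicate 3 or Normoxia Trim AG replicate 1 gave 7 higher, and leaving out Normoxia Trim AG replicate 2 or 3 gave 3 and 2 lower. With Trim AGU, 1 was higher and 3 lower (13.3% and 11.7%). The 1 became 4 and 2 without Normoxia Trim AGU replicates 2 and 3, and the 3 became 5 and 1 without its replicates 1 and 3, 0 without Normoxia miR-125b replicate 1 or 2 and 1 without replicate 3.

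In normoxia Mrpl44 was at 16.3, 15.9 and 17.5 CPM with miR-125b, 17.96, 17.2 and 18.3 with Plus A and 20.1, 19.1 and 20.4 with Trim A, and at 25.7, 24.0 and 23.9 with Trim AG and 25.9, 21.7 and 22.8 with Trim AGU. Trim AG and Trim AGU libraries lay above all those of the other 3 mimics. The difference from miR-125b was 0.52 ± 0.08 on the log2 scale with Trim AG (adjusted p = 0.00076) and 0.49 ± 0.10 with Trim AGU (adjusted p = 0.008), against 0.11 ± 0.08 with Plus A (adjusted p = 1.0) and 0.27 ± 0.08 with Trim A (adjusted p = 0.11). The authors' normoxic means for Mrpl44 were 529 with Plus A and 680 with MC. Together with the hypoxic values, Mrpl44 was at 16.8 to 19.9 CPM in every library of miR-125b and Plus A in hypoxia and at 25.3 to 29.6 CPM in MC.

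With Trim AG in normoxia Mrps12 rose to 54.4, 46.9 and 49.7 CPM, above the 36.3, 35.3 and 32.9 CPM with miR-125b (0.48 ± 0.07, adjusted p = 0.00064). Mrpl12 rose by 0.30 ± 0.08 (118, 107 and 115 against 98.03, 85.7 and 82.6 CPM, adjusted p = 0.011). Mrpl40 fell to 18.4, 19.0 and 18.005 CPM from 26.2, 26.2 and 23.9 CPM (−0.51 ± 0.07, adjusted p = 0.00074). For these 3 genes the groups did not overlap, which for Mrps12 and Mrpl40 was a condition of the choice. Mrps33 fell by 0.36 ± 0.08 on the log2 scale (adjusted p = 0.0086), and with Trim AGU by 0.43 ± 0.12 (adjusted p = 0.03), as did Mrpl40 by 0.37 ± 0.10. Mrpl17 fell by 0.28 ± 0.08 (adjusted p = 0.024), Mrps18a by 0.18 ± 0.06 (adjusted p = 0.046) and Mrps5 rose by 0.26 ± 0.08 (adjusted p = 0.036). These 3 calls were lost without Normoxia Trim AG replicate 2 (Mrpl17, adjusted p = 0.081), replicate 3 (Mrps18a, adjusted p = 0.12) and replicate 1 (Mrps5, adjusted p = 0.13). In the same comparison 56 of 85 cytosolic ribosomal protein genes were lower and none higher (all genes 19.6% and 19.0%). Their median was −0.29, beside quartiles of −0.11 and 0.11 for the mitochondrial set.

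Whether an isomiR's difference from miR-125b changed with oxygen was tested by an interaction term over 12 libraries. For Plus A edgeR called 0 genes (all genes 0.0385%), with 10 at an unadjusted p below 0.05 and 1 by DESeq2. For Trim A it called 0 (0.811%), with 14 and 1, and for Trim AGU 0 (0.966%), with 36 and 1. For Trim AG it called 17 (22.7%), of which 16 were more positive in hypoxia. Shares of all genes by direction are not given here. In the same interaction 31 of 87 cytosolic ribosomal protein genes were called more positive and 1 more negative. Of 12 mitochondrially encoded mRNAs these were 5 and 0, and of 21 mitochondrial aminoacyl-tRNA synthetases 2 and 2. Without Hypoxia Trim A replicate 1 the Trim A count was 41, and without Hypoxia Trim AGU replicate 1 or 2 the Trim AGU count was 40 or 2. The 17 of Trim AG became 35 without Hypoxia Trim AG replicate 1 and 5 to 10 without any 1 of 7 other libraries (Normoxia miR-125b 1 and 2, Hypoxia miR-125b 2 and 3, Normoxia Trim AG 2 and 3, Hypoxia Trim AG 3). When the libraries that stand apart were left out, 3 were called for Trim AG and none for Trim A or Trim AGU. Mrpl12 had an interaction of 0.55 ± 0.12 (adjusted p = 0.007), and 0.43 without those libraries. Mrps22 had 0.60 ± 0.14 (adjusted p = 0.0099), and 0.36 without them.

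In 4 genes libraries of 1 group lay far apart. Mrpl53 was at 14.4 CPM in Hypoxia Plus A replicate 1, at 24.1 in Normoxia Trim A replicate 1 and at 24.3 and 24.4 in Normoxia Trim AG replicates 2 and 3, but at 1.18 in Normoxia Trim AG replicate 1 and at most 1.58 CPM in every remaining library. Its called difference between Normoxia Trim AG and miR-125b (4.49 ± 0.93, adjusted p = 0.0045) thus rests on those 2 libraries. Mrpl30, which overlaps Mitd1 on the opposite strand, ran from 0.382 to 30.3 CPM, with 17.8, 0.871 and 2.00 CPM in Hypoxia miR-125b and 0.382, 15.4 and 10.4 CPM in Normoxia Trim AG. Mrpl1 ran from 0.753 to 8.53 CPM and Mrpl36 from 0.0626 to 1.44 CPM. The kit did not mark strand, so reads of the 10 members that overlap a gene on the opposite strand (Mrpl13, Mrpl21, Mrpl30, Mrpl43, Mrpl47, Mrpl49, Mrps18a, Mrps2, Mrps28 and Mrps7) cannot be told apart from those of the partner.

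**Figure D5:**
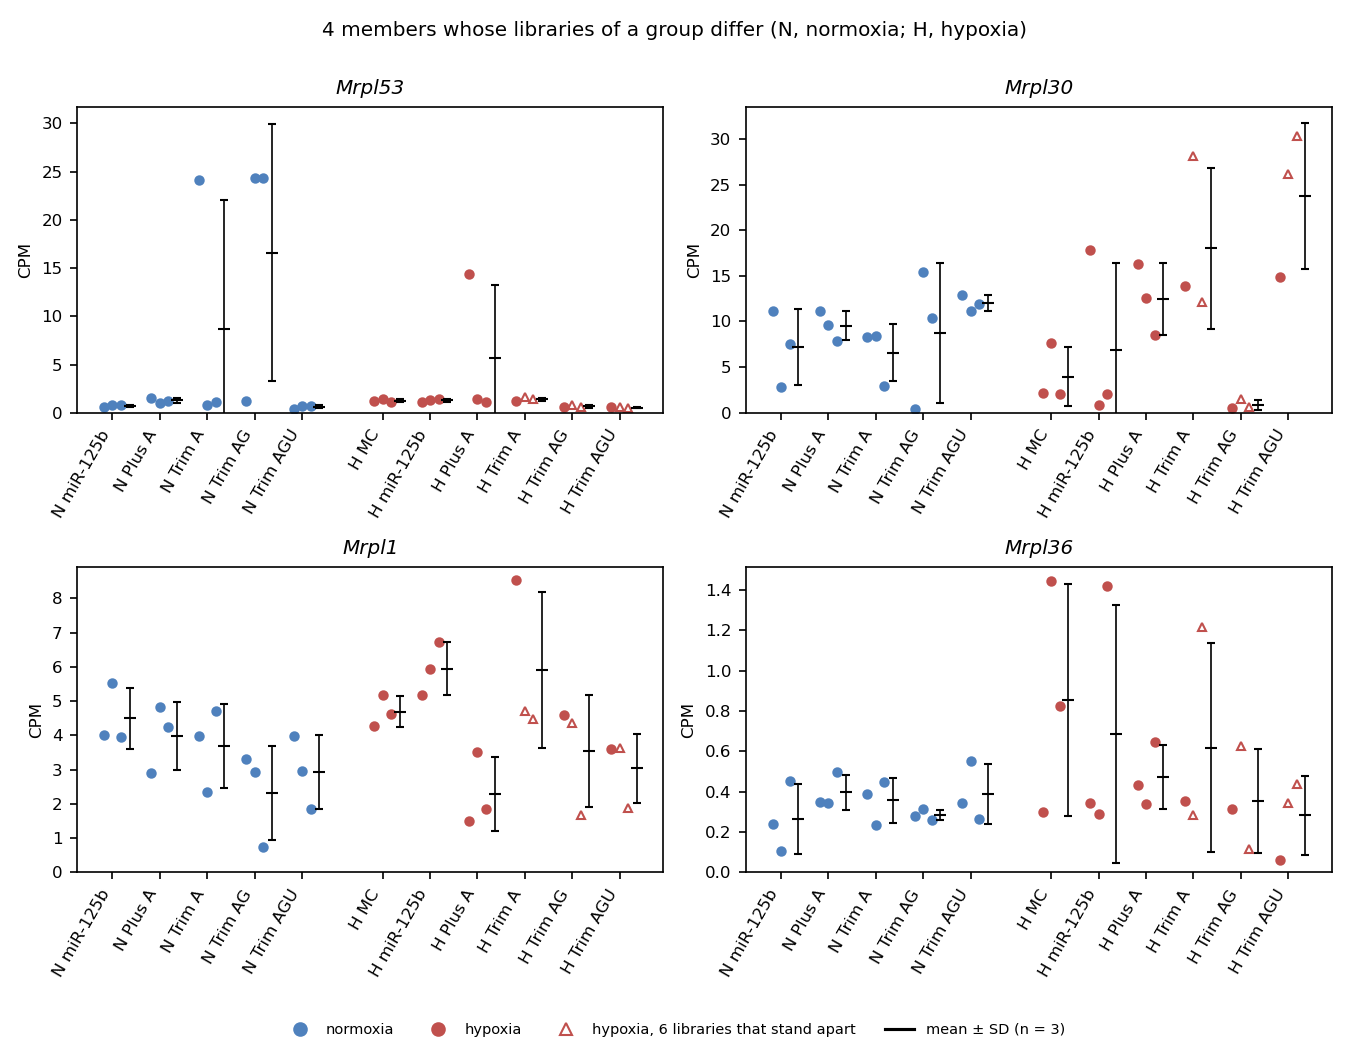
Level in CPM of Mrpl53, Mrpl30, Mrpl1 and Mrpl36 in each library of 11 groups, with points for libraries, open triangles for the 6 libraries that stand apart and bars for the mean and SD of 3 libraries, bars that pass below 0 being cut at the axis. Mrpl53 is at 14.4 to 24.4 CPM in 4 libraries and at most 1.58 CPM in the others.

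Neighbouring genes were read last. Of the members, 16 had a protein-coding neighbour that starts within 1000 bases in the opposite direction. Counted once, these made 15 pairs. Under miR-125b both genes of 2 pairs were called in the same direction (Mrpl32 with Psma2, both lower, and Mrpl2 with Klc4, both higher), and in 6 pairs 1 gene was called. Under Plus A both were called in the same direction in 1 pair, again Mrpl32 with Psma2, in opposite directions in 1, and 1 gene in 6. Mrpl46 and Mrps11, the 1 pair in which both are members, read head to head from the promoter printed above, gave different values with oxygen. Under Plus A Mrpl46 was at 21.0, 20.4 and 19.99 CPM in hypoxia and 17.8, 17.8 and 16.9 CPM in normoxia (0.12 ± 0.08, adjusted p = 0.24), and Mrps11 at 18.3, 18.2 and 18.3 against 23.3, 21.2 and 22.4 CPM (−0.39 ± 0.08, adjusted p = 0.0021). Under miR-125b the values were 0.19 ± 0.08 for Mrpl46 (adjusted p = 0.089) and −0.18 ± 0.06 for Mrps11 (adjusted p = 0.032). The difference between the 2 genes was not tested.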

How the data were processed

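Poly-A RNA of 36 libraries was sequenced with a kit that does not mark strand. The authors aligned reads with HISAT2 and assembled transcripts with StringTie (versions and genome build not given in the sources used here), and deposited 1 table per comparison. Of these, 11 hold whole-number read counts, FPKM and normalized counts (a signal scaled between libraries by the authors) per gene and library, with group means of the normalized counts and gene length. The table of Normoxia Plus A and Normoxia MC was used for its deposited group means alone. The deposited tables also hold the authors' log2 fold changes, p-values and adjusted p-values, which were not used. Tables were joined on gene identifier, a gene absent from a table counting as 0. CPM was computed from the counts.

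Tests used edgeR 4.0.16 (quasi-likelihood, TMM scaling, filterByExpr with a minimum count of 10 and a total of 15) in R 4.3.3 on the libraries of each pair of groups, or on 12 libraries for an interaction, with Benjamini-Hochberg adjustment over all genes tested. Errors are SE. The scripts were tested on simulated data. Alternatives were DESeq2 1.42.0, other scalings, no filter, 1 fit over all libraries, a fold of at least 1.5, a replicate block and leaving out each library. Removal of a length trend from each library (lowess, span 0.3) and leaving out the libraries that stand apart were chosen after seeing the data. The genes and lists were chosen with earlier results of these data known. Genes are named by 4 rules: a known role, calls in every comparison of a family, the 3 largest non-overlapping calls per direction in 5 chosen comparisons, and the highest and lowest FPKM. Mrpl46, Mrps11, Mrps9, Mrpl32 and Mrpl2 fall outside these rules and were chosen after their values were seen.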

Additional observations from a re-analysis of the deposited data

Results flagged for a closer look

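The difference between Trim AG and miR-125b changed with oxygen by the interaction test (edgeR's quasi-likelihood test, Benjamini-Hochberg adjusted) for 17 genes, 16 of them more positive in hypoxia, and 10 of them are genes named here. Among all genes 22.7% were called, so this count is near the background, and it ranged from 5 to 35 when 1 library was left out. The share of all genes by direction is not given here. On the log2 scale the interaction, hypoxia minus normoxia, was 0.55 for Mrpl12, 0.36 for Mrpl17, 0.33 for Mrpl3, 0.46 for Mrpl33, 0.50 for Mrpl54, 0.60 for Mrpl55, 0.49 for Mrps18c, 0.60 for Mrps22 and 0.44 for Mrps30. For Mrpl53 it was −5.41, a value that rests on Normoxia Trim AG replicates 2 and 3. Without Hypoxia Trim AG replicates 2 and 3, which stand apart and leave 1 library in that group, 3 genes were called, and the values were 0.43 for Mrpl12 and −5.57 for Mrpl53. With the length trend removed from each library, 17 genes were called more positive in hypoxia and 1 more negative. The median interaction was then 0.19, against 0.24 in the main fit. The part of the length dependence of those libraries was not otherwise tested.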

How the results depend on the processing

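Comparisons of hypoxia with normoxia under 1 mimic are named by oxygen. No named gene of 190 calls over 29 genes reversed its direction under any alternative run. Of those calls 65 were lost with all libraries in 1 fit, 25 with a replicate block, 15 with library size scaling, 9 with the length trend removed, 4 of 180 with no filter, and 3 each with DESeq2 and RLE scaling. Without the libraries that stand apart 39 of 111 were lost, and over all fits that leave out 1 library 273 of 1200. The counts and medians moved as follows, and the cause was not tested where the alternative does not itself use fewer libraries or a stricter rule.

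With the 6 libraries that stand apart left out, genes called higher numbered 5 for Trim A by oxygen, 20 for Trim AG by oxygen, 7 for Trim AGU by oxygen, 15 for Trim A against MC in hypoxia, 17 for Trim AG against miR-125b in hypoxia and 11 for Trim AGU against miR-125b in hypoxia. With the 6 libraries that stand apart left out, genes called lower numbered 14 for Trim A by oxygen, 10 for Trim AG by oxygen, 3 for Trim AGU by oxygen, 10 for Trim A against MC in hypoxia, 11 for Trim AG against MC in hypoxia, 3 for Trim AGU against MC in hypoxia, 1 for Trim A against miR-125b in hypoxia, 7 for Trim AG against miR-125b in hypoxia and 2 for Trim AGU against miR-125b in hypoxia. With the 6 libraries that stand apart left out, the median log2 fold change was −0.060 for Trim A by oxygen, 0.096 for Trim AG by oxygen, 0.14 for Trim AGU by oxygen, 0.036 for Trim A against MC in hypoxia, 0.20 for Trim AG against MC in hypoxia, 0.16 for Trim AGU against MC in hypoxia, −0.069 for Trim A against miR-125b in hypoxia, 0.064 for Trim AG against miR-125b in hypoxia and 0.066 for Trim AGU against miR-125b in hypoxia. With the 6 libraries that stand apart left out, genes called numbered 3 for the Trim AG interaction. With the length trend removed, the median log2 fold change was −0.027 for miR-125b by oxygen, 0.045 for miR-125b against MC in hypoxia, 0.28 for Trim AG against MC in hypoxia and 0.0018 for Plus A against miR-125b in hypoxia. With the length trend removed, genes called lower numbered 15 for Trim A by oxygen, 12 for Trim AG by oxygen, 2 for Trim AGU by oxygen, 8 for Trim A against MC in hypoxia, 9 for Trim AG against MC in hypoxia, 3 for Plus A against miR-125b in hypoxia, 4 for Trim AG against miR-125b in hypoxia and 1 for Trim AGU against miR-125b in hypoxia. With the length trend removed, genes called higher numbered 3 for Trim A against miR-125b in hypoxia, 1 for Trim AGU against miR-125b in hypoxia and 3 for Trim AGU against miR-125b in normoxia. With library size scaling, genes called higher numbered 23 for miR-125b by oxygen, 15 for Plus A by oxygen and 36 for Trim A by oxygen. With library size scaling, the median log2 fold change was 0.099 for miR-125b by oxygen, 0.031 for Plus A by oxygen and 0.054 for miR-125b against MC in hypoxia. With library size scaling, genes called lower numbered 1 for Trim AGU by oxygen. With DESeq2, genes called lower numbered 1 for Trim AGU by oxygen and 5 for Trim AGU against miR-125b in normoxia. With DESeq2, genes called higher numbered 37 for Trim AGU against MC in hypoxia, 2 for Trim A against miR-125b in hypoxia and 9 for Trim AGU against miR-125b in hypoxia. With DESeq2, genes called numbered 1 for the Plus A interaction, 1 for the Trim A interaction and 1 for the Trim AGU interaction. With no filter, genes called lower numbered 0 for Trim AGU against MC in hypoxia.

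With all libraries in 1 fit, genes called higher numbered 2 for miR-125b by oxygen, 2 for Plus A by oxygen, 49 for Trim AGU by oxygen, 8 for miR-125b against MC in hypoxia, 6 for Plus A against MC in hypoxia, 50 for Trim AGU against MC in hypoxia, 0 for Plus A against miR-125b in hypoxia, 22 for Trim AG against miR-125b in hypoxia, 48 for Trim AGU against miR-125b in hypoxia and 4 for Trim AG against miR-125b in normoxia. With all libraries in 1 fit, genes called lower numbered 8 for miR-125b by oxygen, 12 for Plus A by oxygen, 1 for Trim AGU by oxygen, 2 for miR-125b against MC in hypoxia, 6 for Plus A against MC in hypoxia, 1 for Trim A against MC in hypoxia, 0 for Trim AG against MC in hypoxia, 0 for Trim AGU against MC in hypoxia, 0 for Plus A against miR-125b in hypoxia, 1 for Trim AG against miR-125b in hypoxia, 1 for Trim AG against miR-125b in normoxia and 0 for Trim AGU against miR-125b in normoxia. With all libraries in 1 fit, genes called numbered 5 for the Trim AG interaction and 24 for the Trim AGU interaction. With a fold of at least 1.5, genes called higher numbered 1 for miR-125b by oxygen, 0 for Plus A by oxygen, 6 for Trim A by oxygen, 10 for Trim AG by oxygen, 0 for miR-125b against MC in hypoxia, 2 for Plus A against MC in hypoxia, 6 for Trim A against MC in hypoxia, 17 for Trim AG against MC in hypoxia, 0 for Plus A against miR-125b in hypoxia, 3 for Trim AG against miR-125b in hypoxia, 1 for Trim AG against miR-125b in normoxia and 0 for Trim AGU against miR-125b in normoxia. With a fold of at least 1.5, genes called lower numbered 3 for miR-125b by oxygen, 6 for Plus A by oxygen, 1 for Trim A by oxygen, 1 for miR-125b against MC in hypoxia, 2 for Plus A against MC in hypoxia, 0 for Trim A against MC in hypoxia, 2 for Trim AG against MC in hypoxia, 1 for Plus A against miR-125b in hypoxia, 0 for Trim AG against miR-125b in normoxia and 0 for Trim AGU against miR-125b in normoxia.

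In 18 comparisons the deviations of libraries that carry the same replicate number correlated at −0.31 to 0.15. In 0 of them was every pair over 0.1 or every library closest to its own number. None of these comparisons set a Hypoxia Trim group against another Hypoxia Trim group. In those groups the same replicate numbers stand apart, so sharing by number was not tested there. With the number as a replicate block, genes called higher numbered 15 for Trim A by oxygen, 4 for Trim AGU by oxygen, 14 for Trim AGU against MC in hypoxia, 0 for Plus A against miR-125b in hypoxia and 2 for Trim AGU against miR-125b in normoxia. With the number as a replicate block, genes called lower numbered 0 for Trim AGU against MC in hypoxia, 2 for Plus A against miR-125b in hypoxia and 1 for Trim AG against miR-125b in hypoxia.

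Genes called higher ranged over 10 to 15 for miR-125b by oxygen, 6 to 8 for Plus A by oxygen, 9 to 45 for Trim A by oxygen, 23 to 42 for Trim AG by oxygen, 2 to 34 for Trim AGU by oxygen, 20 to 26 for miR-125b against MC in hypoxia, 15 to 25 for Plus A against MC in hypoxia, 15 to 53 for Trim A against MC in hypoxia, 37 to 51 for Trim AG against MC in hypoxia, 1 to 48 for Trim AGU against MC in hypoxia, 0 to 1 for Plus A against miR-125b in hypoxia, 0 to 56 for Trim A against miR-125b in hypoxia, 14 to 49 for Trim AG against miR-125b in hypoxia, 0 to 21 for Trim AGU against miR-125b in hypoxia, 0 to 0 for Plus A against miR-125b in normoxia, 0 to 0 for Trim A against miR-125b in normoxia, 7 to 12 for Trim AG against miR-125b in normoxia and 1 to 4 for Trim AGU against miR-125b in normoxia when 1 library was left out. Genes called lower ranged over 13 to 18 for miR-125b by oxygen, 16 to 24 for Plus A by oxygen, 2 to 6 for Trim A by oxygen, 4 to 10 for Trim AG by oxygen, 0 to 2 for Trim AGU by oxygen, 6 to 10 for miR-125b against MC in hypoxia, 9 to 17 for Plus A against MC in hypoxia, 0 to 4 for Trim A against MC in hypoxia, 1 to 10 for Trim AG against MC in hypoxia, 0 to 1 for Trim AGU against MC in hypoxia, 0 to 7 for Plus A against miR-125b in hypoxia, 0 to 0 for Trim A against miR-125b in hypoxia, 0 to 6 for Trim AG against miR-125b in hypoxia, 0 to 2 for Trim AGU against miR-125b in hypoxia, 0 to 0 for Plus A against miR-125b in normoxia, 0 to 0 for Trim A against miR-125b in normoxia, 2 to 8 for Trim AG against miR-125b in normoxia and 0 to 5 for Trim AGU against miR-125b in normoxia when 1 library was left out. Medians ranged over −0.018 to 0.050 for miR-125b by oxygen, −0.11 to −0.055 for Plus A by oxygen, 0.16 to 0.35 for Trim A by oxygen, 0.20 to 0.33 for Trim AG by oxygen, 0.23 to 0.66 for Trim AGU by oxygen, 0.070 to 0.12 for miR-125b against MC in hypoxia, 0.0079 to 0.082 for Plus A against MC in hypoxia, 0.22 to 0.42 for Trim A against MC in hypoxia, 0.33 to 0.42 for Trim AG against MC in hypoxia, 0.32 to 0.73 for Trim AGU against MC in hypoxia, −0.092 to −0.037 for Plus A against miR-125b in hypoxia, 0.12 to 0.31 for Trim A against miR-125b in hypoxia, 0.17 to 0.32 for Trim AG against miR-125b in hypoxia, 0.20 to 0.63 for Trim AGU against miR-125b in hypoxia, −0.013 to 0.050 for Plus A against miR-125b in normoxia, −0.061 to 0.0029 for Trim A against miR-125b in normoxia, −0.025 to 0.027 for Trim AG against miR-125b in normoxia and −0.15 to −0.017 for Trim AGU against miR-125b in normoxia when 1 library was left out. Genes called ranged over 0 to 0 for the Plus A interaction, 0 to 41 for the Trim A interaction, 5 to 35 for the Trim AG interaction and 0 to 40 for the Trim AGU interaction when 1 library was left out.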

Other observations

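Normoxia MC was available here only as the authors' mean of normalized counts, beside that of Normoxia Plus A, so no replicate check could be made. Of 72 genes listed once, 43 had a ratio of Plus A to MC above 1 and 29 below, with a median log2 ratio of 0.06 against 0.01 over 14416 genes. Mrpl12 stood at 0.42, Mrpl45 at 0.28 and Mrps22 at 0.22, and Mrpl16 at −0.57, Mrpl44 at −0.36 and Mrps12 at −0.35.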
